A study of Arabidopsis thaliana with 27 samples.

Results

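The genes described here are 6 cytochrome P450 genes of camalexin and 4-hydroxyindole-3-carbonyl nitrile (hydroxy-ICN) synthesis, namely CYP71A12 (AT2G30750), CYP71A13 (AT2G30770), PAD3 (AT3G26830, also called CYP71B15), CYP71B6 (AT2G24180), CYP82C2 (AT4G31970) and CYP82C4 (AT4G31940). They were taken by gene identifier with no cut on values, but chosen with earlier results of these data known. All 6 were found among the 34262 gene entries that every library lists. RNA was sequenced from protoplasts of Arabidopsis Col-0 roots that were sorted by fluorescence-activated cell sorting from 3 marker lines, which express GFP from pGL2 in non-hair cells of the epidermis, from pCORTEX in the cortex, or from the enhancer trap E3754 in the xylem-pole pericycle. Roots were treated with flg22, a peptide of bacterial flagellin, with Pep1, a danger peptide made by the plant itself, or with water as a mock. The sample labels give an elicitor concentration of 1 mM, an incubation of 1 h and plants grown for 10 d, whereas the series description gives 1 µM and sampling after 2 h. Each of the 9 combinations of cell type and treatment label has 3 libraries numbered 3, 2 and 1, which makes 27 libraries. The methods of the study speak of independent experiments for each marker line. Each library is a bulk sample of many cells from pooled seedlings, so that fewer cells of a type and less RNA per cell cannot be told apart.

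Camalexin is the main indolic phytoalexin of Arabidopsis, an antimicrobial compound made from tryptophan after pathogen contact. CYP79B2 and CYP79B3 make indole-3-acetaldoxime, which CYP71A13 and CYP71A12 dehydrate to indole-3-acetonitrile. After conjugation with glutathione, PAD3 carries out the last steps to camalexin. The same acetaldoxime also feeds the cyanogenic compound hydroxy-ICN, through CYP71A12, the flavin-dependent oxidase FOX1 and the hydroxylase CYP82C2. CYP71B6 turns indole-3-acetonitrile into indole-3-carboxylic acid and its aldehyde, and CYP82C4 hydroxylates the coumarin fraxetin to sideretin in roots that lack iron. In roots, flagellin perception is known to induce CYP71A12.

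Libraries held from 4172741 to 17188823 counts on genes (median 9872815), and 2321855 to 12288356 after organelle, rRNA and ribosomal protein genes were left out. Levels are given as CPM, the count of a gene scaled to a fixed total of these remaining counts after TMM normalization, and as CPM per kilobase of exon (RPKM) where genes are compared with each other. The summed level of the non-hair epidermis markers GL2, WER and TTG2 was 186 to 504 CPM in epidermis libraries, 7.96 to 47.2 CPM in cortex libraries and 0.471 to 55.5 CPM in pericycle libraries. The pericycle markers PHO1, HMA4 and SKOR summed to 2.76 to 11.98 CPM, 5.36 to 18.7 CPM and 610 to 1931 CPM in these cell types. Pericycle libraries also held the phloem markers SUC2 and APL, at a sum of 29.1 to 245 CPM. Their sum was at most 3.83 CPM in cortex libraries and 2.87 CPM in epidermis libraries. The part of phloem cells in the pericycle levels of the P450 and pathway genes was not tested. AED3 marked the cortex at 114 to 325 CPM, against 2.24 to 6.91 CPM in epidermis libraries and 7.11 to 111 CPM in pericycle libraries. The highest pericycle value thus came close to the lowest of the cortex. CO2, the other cortex marker, was at 0 in all 9 cortex libraries and had 53 counts in 1 pericycle library. The part of cortex cells in pericycle libraries was not tested. GL2 chose the sorted epidermal cells through its promoter, so its level there is no separate check. In the pericycle, flg22 replicate 3 stood apart with the epidermal markers at 0.471 CPM, and the epidermis library labelled Pep1 replicate 1 was the deepest of the series. Epidermis flg22 replicate 2, highest of all in CYP71A12, held the photosynthesis genes RBCS1A and CAB3 at a sum of 116 CPM. Other epidermis libraries had at most 0.783 CPM of them, and the part of other tissue in this library was not tested. Pericycle Pep1 replicate 1 had the fewest counts and the highest root hair markers (COBL9 and EXPA7, 51.3 CPM). The library titles open with 1 of 7 numbers, read here as sequencing pools although the titles do not say what they stand for. The epidermis libraries lie in pools that hold no other cell type, so that epidermis and pool cannot be told apart.

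CYP71A12 and CYP71A13 are neighbours and close copies, and whether reads of them can be separated decides how a count of 0 for CYP71A13 is read. In TAIR10.1, CYP71A12 lies on chromosome 2 from 13099486 to 13101371 and CYP71A13 from 13109909 to 13111988, both on the minus strand with 4 exons, and 8537 bases lie between them. Their coding sequences of 1494 bases differ at 144 positions and are 90.4% identical. The first 100 coding bases of each are given here from RefSeq in TAIR10.1, read from the minus strand, with the 13 positions that differ in capitals (chr2:13101272-13101371 for CYP71A12 and chr2:13111889-13111988 for CYP71A13).
CYP71A12: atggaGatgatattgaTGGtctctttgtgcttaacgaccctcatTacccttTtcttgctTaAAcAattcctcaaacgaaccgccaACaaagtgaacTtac
CYP71A13: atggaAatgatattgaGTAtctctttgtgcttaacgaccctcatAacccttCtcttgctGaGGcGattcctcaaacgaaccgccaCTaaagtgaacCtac
Along all exons, stretches of 100 bases, the length of a read, differed between the genes at 4 to 20 positions (median 8.5). None of the 1098 stretches of either gene recurred without a mismatch elsewhere in the genome, and the same held for the other 4 P450 genes. Part of CYP71A13, 330 of its exon bases, overlaps AT2G30766 on the other strand, where reads cannot be assigned without strand, and 1164 exon bases are free of it. These bases are from TAIR10.1, and overlaps in the gene models used for counting were not checked.

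CYP71A13 and CYP82C4 had a count of 0 in all 27 libraries. With 186830077 counts over the series, a count of 0 allows a level of up to 0.0161 CPM over all libraries (3 counts, counting error only). In a single library the same 3 counts stand for 0.244 to 1.29 CPM. CYP82C2 had 6 counts in all, of which 2 were in the epidermis library labelled flg22 replicate 2, 2 in Pep1 replicate 3 and 1 in mock replicate 3, and 1 in the pericycle library labelled Pep1 replicate 3. Of 27070 protein-coding entries, 2942 (10.9%) were likewise at 0 throughout. These 3 genes did not pass the filter on low counts. CYP82C2 could be tested without the filter or in DESeq2 and was called in 0 of these tests, with 0 at an unadjusted p under 0.05. The hydroxylases CYP82C4 and CYP82C2 lie on chromosome 4, from 15451988 to 15454224 and from 15462350 to 15464563, with their copy CYP82C3 between them, from 15455083 to 15457121.

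The 3 measured genes differed in where they were highest. Epidermis libraries had CYP71A12 at 57.8 ± 41.2 RPKM, cortex libraries at 4.52 ± 3.15 RPKM and pericycle libraries at 8.98 ± 10.13 RPKM (SD, n = 9 libraries each). PAD3 (chromosome 3 from 9887917 to 9889791, plus strand, 2 exons) averaged 0.0502 ± 0.0862 RPKM in epidermis libraries, 0.510 ± 0.919 RPKM in cortex libraries and 4.79 ± 4.14 RPKM in pericycle libraries. CYP71B6 (chromosome 2 from 10281718 to 10283735, plus strand, 2 exons) was present in every library, at 29.6 ± 16.1 RPKM, 14.2 ± 13.5 RPKM and 22.3 ± 7.58 RPKM. In the epidermis the gene that makes the nitrile was abundant while PAD3 was close to 0, and in the pericycle the means of CYP71A12 and PAD3 differed by less than the SD of CYP71A12. Reads on the 115 exon bases where CYP71B6 overlaps AT2G24190, on the other strand, cannot be assigned without strand, and AT2G24190 itself had 1305 counts in all against 7766 for CYP71B6.

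**Figure D1:**
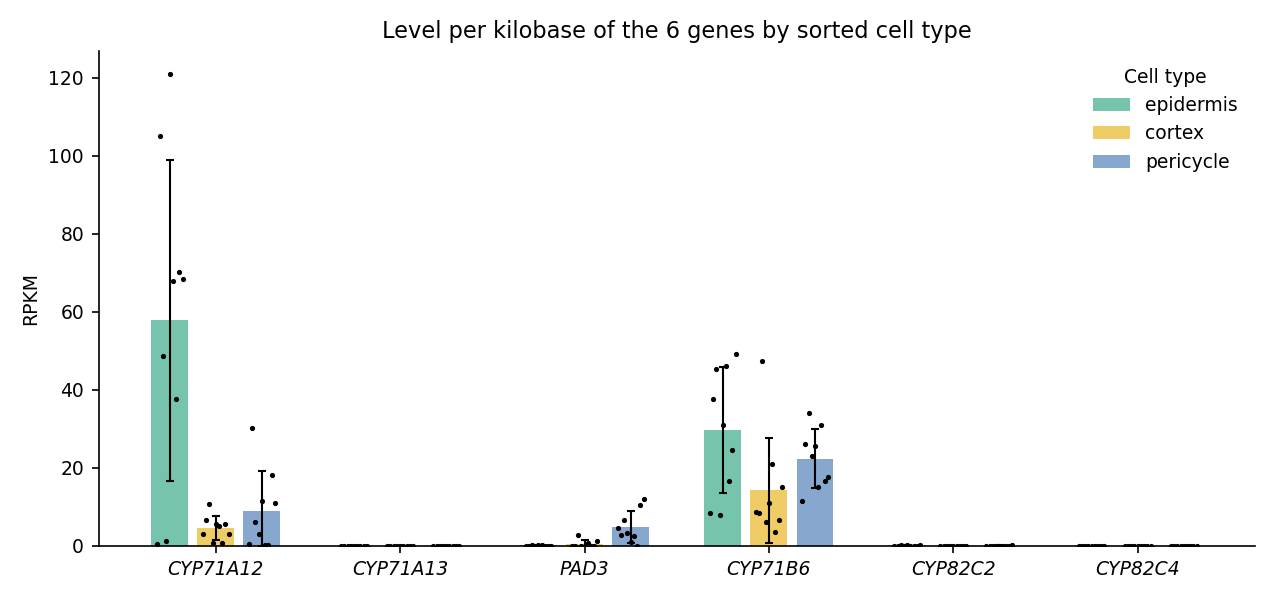
Levels of the P450 genes in the epidermis, the cortex and the pericycle, in RPKM, with bars for the mean of 9 libraries, error bars for the SD (ended at 0 where they would pass below it) and points for single libraries. CYP71A12 was highest in the epidermis (57.8 RPKM), PAD3 in the pericycle (4.79 RPKM), and CYP71A13 and CYP82C4 stayed at 0.

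In the epidermis, CYP71A12 had 101, 181 and 1.70 CPM in the flg22 libraries numbered 3, 2 and 1, then 102, 105 and 56.2 CPM in the Pep1 libraries, and 72.7, 157 and 0.778 CPM in the mock libraries. The 2 libraries numbered 1 and labelled flg22 or mock were thus near the bottom, while Pep1 replicate 1 was not. In the cortex it had 7.52, 8.21 and 0.879 CPM with flg22, 4.51, 8.28 and 1.19 CPM with Pep1, and 16.02, 9.82 and 4.30 CPM with mock, in the same order of numbers. In the pericycle the values were 0.157, 17.0 and 4.36 CPM with flg22, 16.4, 27.2 and 0.369 CPM with Pep1, and 9.14, 45.3 and 0.747 CPM with mock. The other 7 epidermis libraries lay above every cortex and pericycle library. The library lowest in CYP71A12, pericycle flg22 replicate 3, was also the lowest in epidermal markers. Pericycle libraries numbered 2 had CYP71A12 at 17.0 to 45.3 CPM with epidermal markers at 30.1 to 46.1 CPM. Those numbered 1 had it at 0.369 to 4.36 CPM with markers at 24.6 to 55.5 CPM. Those numbered 3 had it at 0.157 to 16.4 CPM with markers at 0.471 to 42.0 CPM. In the epidermis, CYP71A12 was at 105 to 181 CPM with markers at 247 to 361 CPM in number 2. In number 1 it was at 0.778 to 56.2 CPM there with markers at 324 to 504 CPM. The part of epidermal cells in the cortex and pericycle levels of CYP71A12 was not tested.

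**Figure D2:**
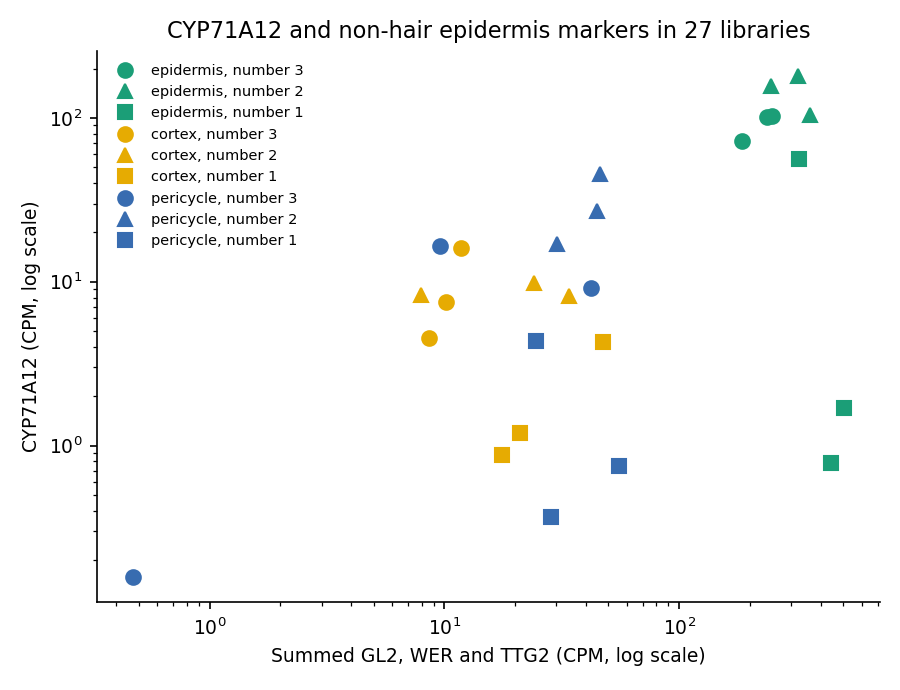
CYP71A12 level of each of the 27 libraries against the summed level of the epidermal markers GL2, WER and TTG2, both in CPM on log axes, by cell type and replicate number. Pericycle libraries numbered 2 (markers at 30.1 to 46.1 CPM) lay above those numbered 1 (markers at 24.6 to 55.5 CPM) in CYP71A12. So did epidermis libraries numbered 2 (markers at 247 to 361 CPM) over those numbered 1 (markers at 324 to 504 CPM).

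PAD3, the last enzyme gene of camalexin synthesis, had 576 of its 645 counts in the pericycle libraries. It had 4.55, 1.56 and 5.72 CPM in the pericycle flg22 libraries numbered 3, 2 and 1, then 21.3, 18.5 and 0 CPM in the Pep1 libraries, and 11.8, 4.95 and 8.22 CPM in the mock libraries. In the cortex it was found only in libraries numbered 3, at 1.36 CPM with flg22, 2.03 CPM with Pep1 and 4.77 CPM with mock, and at 0 in the other 6. In the epidermis 3 libraries held 5 counts together, and 6 were at 0. The cortex libraries numbered 3 had the pericycle markers at 9.69 to 18.7 CPM, against 5.36 to 13.2 CPM and 11.4 to 13.6 CPM in those numbered 2 and 1, and the part of pericycle cells in this was not tested. Pooled over the cortex libraries numbered 3, PAD3 had 64 counts, at least 28.0-fold over the 6 others at 0 (3 counts over that group).

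CYP71B6 had 84.2, 56.5 and 14.2 CPM in the epidermis flg22 libraries numbered 3, 2 and 1, then 89.9, 45.1 and 30.1 CPM in the Pep1 libraries, and 82.9, 68.7 and 15.5 CPM in the mock libraries. The 3 numbers did not overlap there, in the order 3, 2 and 1 from high to low, whatever the label. How many of all genes are ordered by number in this way, here or in the other cell types, was not counted. In the cortex it had 38.4, 19.8 and 11.1 CPM with flg22, 27.7, 12.3 and 6.52 CPM with Pep1, and 86.8, 15.4 and 15.97 CPM with mock, so that number 3 was above the other two and these overlapped. In the pericycle it had 27.6, 46.9 and 42.1 CPM with flg22, 32.4, 30.3 and 56.8 CPM with Pep1, and 62.2, 47.5 and 21.1 CPM with mock, with all 3 numbers overlapping.

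**Figure D3:**
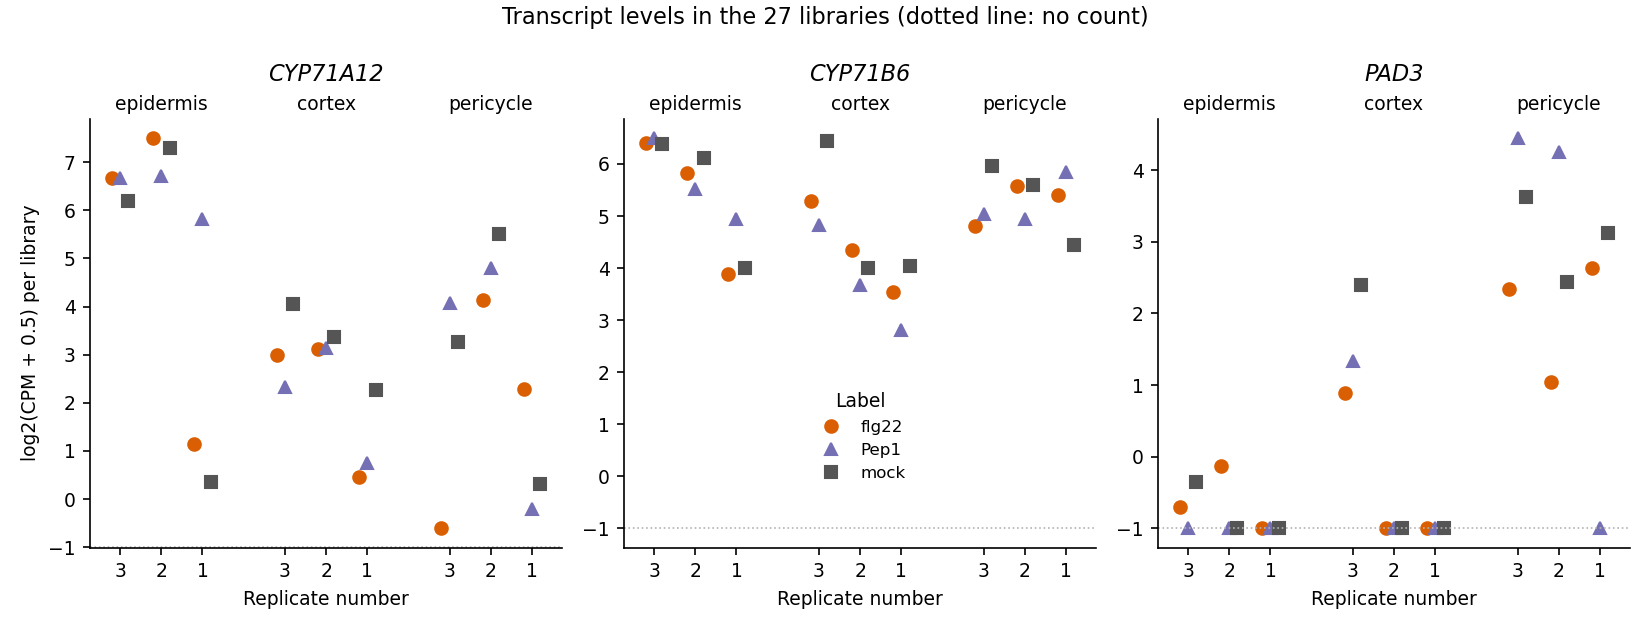
Levels of CYP71A12, CYP71B6 and PAD3 in each library, as log2 of CPM plus 0.5, by cell type and replicate number, with the label as colour and shape. The labels overlap within each cell type, whereas libraries numbered 3 and 2 lie above those numbered 1 for CYP71A12 in the epidermis (at least 72.7 CPM against at most 56.2 CPM) and in the cortex (at least 4.51 CPM against at most 4.30 CPM). How many of all genes separate in this way was not counted.

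Between cell types the tests followed these levels. Over all 27 libraries, CYP71A12 was higher in the epidermis than in the cortex by 3.44 ± 0.66 on the log2 scale (SE, edgeR adjusted p = 0.000319) and than in the pericycle by 2.85 ± 0.63 (SE, edgeR adjusted p = 0.00100), and cortex minus pericycle did not pass the test (-0.59 ± 0.64, SE). CYP71B6 was higher in the epidermis than in the cortex by 1.21 ± 0.26 (SE, edgeR adjusted p = 0.000820) and lower in the cortex than in the pericycle, with a log2 difference of -1.03 ± 0.25 (SE, edgeR adjusted p = 0.00268), while epidermis minus pericycle did not pass the test (0.17 ± 0.25, SE). PAD3 was lower than in the pericycle both in the epidermis (-6.93 ± 1.09, SE, edgeR adjusted p = 0.000180) and in the cortex (-6.51 ± 1.19, SE, edgeR adjusted p = 0.000684). Epidermis and cortex could not be fitted for PAD3, which had too few counts there. In each comparison 2 of the tested genes were called, beside 39.3% of all 19138 genes between epidermis and cortex, 47.7% between epidermis and pericycle and 45.4% between cortex and pericycle, so that a call was common in this fit. By direction these shares were 20% higher in the epidermis than in the cortex, 25.6% higher and 22.1% lower in the epidermis than in the pericycle, and 21.9% lower in the cortex than in the pericycle. In pooled counts PAD3 was 142-fold higher in the pericycle than in the epidermis (95% exact counting interval 60.5 to 439), from 576 and 5 counts. Against the cortex the pooled ratio of pericycle to cortex was 10.1 (95% exact counting interval 7.79 to 13.3), from 576 and 64 counts, well below the fitted difference, and without the replicate block that difference was -3.17 (edgeR adjusted p = 0.0167), so its size is imprecise. Without epidermis Pep1 replicate 1, the differences of CYP71A12 were 2.24 (edgeR adjusted p = 0.00346) against the cortex and 1.65 (edgeR adjusted p = 0.0174) against the pericycle, and without pericycle flg22 replicate 1 the difference from the pericycle was 3.84. The epidermal difference of PAD3 was -7.67 without epidermis mock replicate 3 and -7.94 without epidermis flg22 replicate 2. Without the replicate block, CYP71B6 was not called between cortex and pericycle (-0.75, edgeR adjusted p = 0.157).

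Among the 9 mock libraries alone, PAD3 was the only P450 gene that passed the test, lower in the epidermis than in the pericycle with a log2 difference of -7.82 ± 1.71 (SE, edgeR adjusted p = 0.00886), beside 18.4% of all genes called in this comparison (10.1% lower). The pericycle mock libraries held 213 counts of PAD3 and the epidermis ones 2, a pooled ratio of pericycle to epidermis of 106 (95% exact counting interval 28.9 to 879), so the fitted size is imprecise. It lay between -6.49 without pericycle mock replicate 1 and -11.44 without pericycle mock replicate 3, with -6.97 without pericycle mock replicate 2, -6.62 without cortex mock replicate 3 and -7.20 without cortex mock replicate 1. Without the replicate block it was -6.24 and not called (edgeR adjusted p = 0.0557). Between cortex and pericycle, PAD3 had -4.57 ± 1.42 (SE, edgeR adjusted p = 0.0721) and was called in DESeq2 (adjusted p = 0.00156) and, in edgeR, without cortex mock replicate 3 (-8.50, adjusted p = 0.0484). CYP71A12 had 1.42 ± 0.97 (SE, edgeR adjusted p = 0.385) for epidermis minus cortex and 1.98 ± 0.85 (SE, edgeR adjusted p = 0.129) for epidermis minus pericycle. It was called in the first of these without cortex mock replicate 1 (2.70, edgeR adjusted p = 0.0202) and in the second without epidermis mock replicate 1 (2.60, edgeR adjusted p = 0.0352). In the 2 comparisons with the cortex 14.1% (epidermis) and 7.5% (pericycle) of all genes were called.

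Cortex and pericycle Pep1 libraries numbered 2 and 1 share a sequencing pool, which gives a comparison of these cell types within a pool. CYP71A12 had 8.28 and 1.19 CPM in the cortex and 27.2 and 0.369 CPM in the pericycle, so its order differed between the numbers. CYP71B6 had 12.3 and 6.52 CPM in the cortex and 30.3 and 56.8 CPM in the pericycle, lower in the cortex in both pairs. PAD3 was at 0 in both cortex libraries and at 18.5 and 0 CPM in the pericycle.

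The study asked how each cell type responds to the elicitors. Labels were taken as deposited, and whether each treatment label and number stands on its own library was not tested, so all comparisons of labels and of numbers rest on them. No P450 gene passed the test between treatment labels in any cell type. In edgeR, 0 of 21 tests (CYP71A12 and CYP71B6 in each cell type and PAD3 in the pericycle, for flg22 minus mock, Pep1 minus mock and Pep1 minus flg22) passed the threshold, 2 had an unadjusted p under 0.05, and DESeq2 called 0. Over all genes, edgeR called 0.256% in the cortex and 0.0113% in the pericycle between Pep1 and mock, and 0% in the other comparisons of labels. The study, with DESeq2 and a batch term, reported genes responding to flg22 and to Pep1 in each cell type, and more for Pep1. The share of all genes called by DESeq2 is not given here, and the cause of the difference from the study was not tested. CYP71A12 averaged 94.6 ± 89.7 CPM with flg22, 87.7 ± 27.3 CPM with Pep1 and 76.8 ± 78.2 CPM with mock in the epidermis (SD, n = 3 each). In the cortex it averaged 5.54 ± 4.05, 4.66 ± 3.55 and 10.0 ± 5.86 CPM, and in the pericycle 7.18 ± 8.78, 14.7 ± 13.5 and 18.4 ± 23.7 CPM. The 2 tests under 0.05 were for Pep1 minus mock in the cortex, where CYP71B6 had a log2 fold change of -1.09 ± 0.33 (SE, edgeR adjusted p = 0.153) and CYP71A12 one of -1.25 ± 0.55 (SE, edgeR adjusted p = 0.308). CYP71B6 averaged 15.5 ± 10.97 CPM with Pep1 there and 39.4 ± 41.1 CPM with mock, where replicate 3 had 86.8 CPM.

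The largest estimate of the 21, for CYP71A12 in the epidermis between Pep1 and mock, was 1.97 ± 1.23 (SE, edgeR adjusted p = 1.00). It rested on Pep1 replicate 1 and was 0.06 ± 0.31 (SE) without that library. PAD3 in the pericycle averaged 3.94 ± 2.14 CPM with flg22, 13.3 ± 11.6 CPM with Pep1 and 8.33 ± 3.43 CPM with mock, and the Pep1 libraries spanned the whole range of values, including a count of 0. The 0 was in Pep1 replicate 1, the library with the fewest counts of the series (2321855 after genes were left out). The interaction of cell type with label called none of the P450 genes (edgeR adjusted p of at least 0.947), beside 0.047% of all genes for flg22 and 0% for Pep1. These tests do not show that the labels had the same level.

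**Figure D4:**
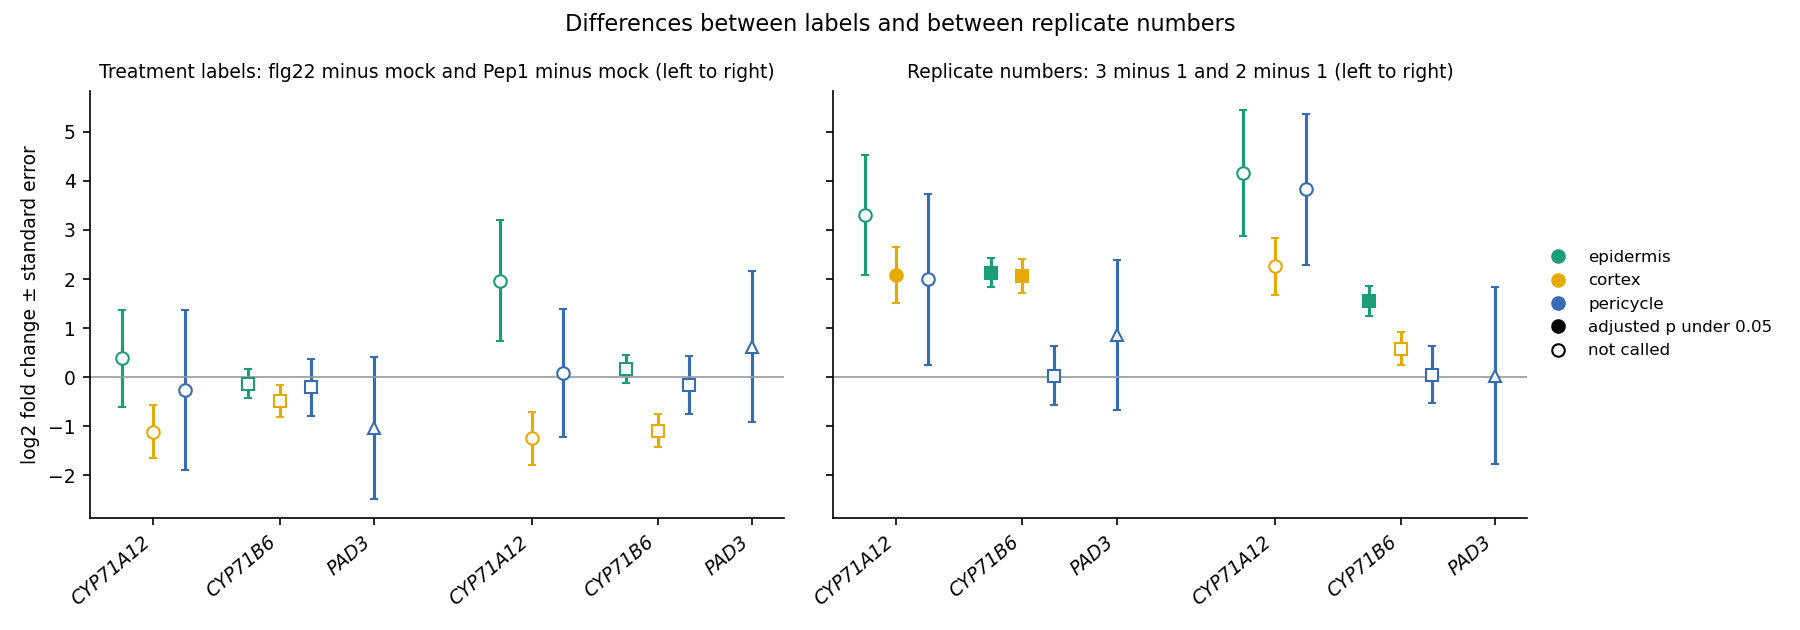
Log2 fold changes of CYP71A12, CYP71B6 and PAD3 with standard errors from edgeR, between treatment labels (left panel) and between replicate numbers (right panel), by cell type. Filled symbols passed an adjusted p under 0.05, which none did between labels. Between numbers, CYP71B6 did in the epidermis (2.13 and 1.55) and the cortex (2.06), and CYP71A12 in the cortex (2.08).

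Between replicate numbers, CYP71A12 and CYP71B6 were higher in number 3 than in number 1 in the cortex, and CYP71B6 was so in the epidermis too. In the cortex CYP71A12 averaged 9.35 ± 5.97 CPM with number 3 and 2.12 ± 1.90 CPM with number 1 (SD, n = 3 each), a log2 fold change of 2.08 ± 0.56 (SE, edgeR adjusted p = 0.0348). CYP71B6 averaged 51.0 ± 31.5 CPM and 11.2 ± 4.72 CPM there, a log2 fold change of 2.06 ± 0.34 (SE, edgeR adjusted p = 0.00268). These are 2 of 2 genes tested, beside 12.3% of all genes (6.64% higher in number 3). PAD3, at 64 counts in number 3 and 0 in the others, did not pass the count filter in the cortex, and without that filter it was called between numbers 3 and 1 (edgeR adjusted p = 0.0262) and between 3 and 2 (edgeR adjusted p = 0.0331). The call of CYP71A12 was lost without cortex mock replicate 3 (adjusted p = 0.181), flg22 replicate 1 (0.113), flg22 replicate 3 (0.111), Pep1 replicate 1 (0.0890) or Pep1 replicate 3 (0.0601), with a log2 fold change of 1.79 to 2.29 in these edgeR fits. With the sequencing pool as a further term it was 2.28 and not called (edgeR adjusted p = 0.0633).

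In the epidermis, CYP71B6 averaged 85.7 ± 3.71 CPM in number 3, 56.8 ± 11.8 CPM in number 2 and 19.9 ± 8.86 CPM in number 1. Its log2 fold change was 2.13 ± 0.30 (SE, edgeR adjusted p = 0.00718) between numbers 3 and 1, beside 5.35% of all genes called (3.66% higher), and 1.55 ± 0.30 (SE, edgeR adjusted p = 0.0443) between numbers 2 and 1, beside 1.78% (1.76% higher). Without epidermis mock replicate 1 the first of these was 1.93 and not called (edgeR adjusted p = 0.0695). The second was kept only without mock replicate 3 or Pep1 replicate 1, and edgeR's adjusted p with 1 other library left out was 0.198 (flg22 replicate 1), 0.111 (flg22 replicate 2), 0.129 (flg22 replicate 3), 0.0669 (Pep1 replicate 2), 0.0729 (Pep1 replicate 3), 0.328 (mock replicate 1) or 0.164 (mock replicate 2). CYP71A12 averaged 92.0 ± 16.8 CPM in number 3, 147 ± 38.8 CPM in number 2 and 19.6 ± 31.8 CPM in number 1. Its log2 fold changes of 3.30 ± 1.23 between numbers 3 and 1 (SE, edgeR adjusted p = 0.176) and 4.16 ± 1.29 between numbers 2 and 1 (SE, edgeR adjusted p = 0.237) did not pass the test. Both turned on Pep1 replicate 1, at 56.2 CPM, and without it they were 6.33 ± 0.44 (SE, edgeR adjusted p = 0.00260) and 6.99 ± 0.44 (SE, edgeR adjusted p = 0.00275). DESeq2 called both with that library (adjusted p = 0.0414 and 0.0126). Neither gene was called between numbers 3 and 2 in the epidermis, beside 0.0874% of all genes, with log2 fold changes of -0.86 for CYP71A12 and 0.58 for CYP71B6.

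In the cortex between numbers 2 and 1, CYP71A12 had 8.77 ± 0.910 CPM against 2.12 ± 1.90 CPM, and the log2 fold change of 2.26 ± 0.57 (SE) was one that edgeR did not call (adjusted p = 0.0886) and DESeq2 did (adjusted p = 0.0179), and CYP71B6 had 0.58 ± 0.34 (SE, edgeR adjusted p = 0.572), beside 1.9% of all genes called. Between numbers 3 and 2, CYP71B6 was higher by 1.48 ± 0.33 (SE, edgeR adjusted p = 0.0479), beside 2% of all genes (0.959% higher), while CYP71A12 had -0.18. This call of CYP71B6 was kept only without cortex mock replicate 1 or flg22 replicate 2. Its adjusted p in edgeR with 1 other library left out was 0.0614 (flg22 replicate 1), 0.0708 (flg22 replicate 3), 0.0552 (Pep1 replicate 1), 0.162 (Pep1 replicate 2), 0.164 (Pep1 replicate 3), 0.2795 (mock replicate 2) or 0.310 (mock replicate 3).

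In the pericycle edgeR called 0 of the 3 tested genes between numbers, with 1 of 9 tests at an unadjusted p under 0.05, and DESeq2 called 0. Of all genes, 0.588% were called between 3 and 1, 0.0904% between 2 and 1 and 0% between 3 and 2. CYP71A12 averaged 8.58 ± 8.16 CPM in number 3, 29.8 ± 14.3 CPM in number 2 and 1.82 ± 2.20 CPM in number 1. Its log2 fold change was 3.83 ± 1.55 (SE, edgeR adjusted p = 1.00) between numbers 2 and 1 and 1.99 ± 1.75 (SE, edgeR adjusted p = 0.841) between numbers 3 and 1. CYP71B6 averaged 40.7 ± 18.7, 41.6 ± 9.78 and 40.01 ± 17.9 CPM in numbers 3, 2 and 1, and PAD3 averaged 12.6 ± 8.42, 8.34 ± 8.97 and 4.65 ± 4.21 CPM. The difference of CYP71B6 between numbers 3 and 1 did not pass the test for varying between cell types (edgeR interaction, unadjusted p = 0.00374, adjusted p = 0.451), so the pericycle is not shown to differ from the other cell types in it. That interaction was called for 0.00523% of all genes.

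Pairs of libraries of the same cell type, label and sequencing pool gave these differences within a pool, on the log2 scale of CPM plus 0.5. CYP71A12 was higher in number 2 than in number 1 in 3 of 3 such pairs in each cell type, by 0.89 to 6.94 between epidermis libraries, 1.10 to 2.66 between cortex libraries and 1.85 to 5.20 between pericycle libraries. Between numbers 3 and 1 it was higher in 2 of 2 pairs in the epidermis (0.85 to 5.54) and in the cortex (1.78 to 2.54), and in 1 of 2 in the pericycle. CYP71B6 was higher in number 3 than in number 1 in 2 of 2 pairs in the epidermis (1.56 to 2.53) and in the cortex (1.74 to 2.41), and in 1 of 2 in the pericycle (-0.60 to 1.53).

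The other genes of the pathway were followed as a list of 33, from acetaldoxime supply to regulators, exporters and iron and coumarin genes. Between treatment labels, with 25 of them tested in epidermis, 27 in cortex and 30 in pericycle libraries, edgeR called 0 in 246 tests, of which 16 had an unadjusted p under 0.05, and DESeq2 called 1, the WRKY33 kinase gene CPK6 for Pep1 minus mock in the cortex. Between numbers 3 and 1, edgeR called 10 higher and 0 lower in epidermis libraries, 13 higher and 2 lower in cortex libraries, and 4 higher and 0 lower in pericycle libraries. Over all genes, 5.35% (3.66% higher), 12.3% (6.64% higher) and 0.588% were called in these comparisons. The median log2 fold change of the list was 1.78 for epidermis, 1.04 for cortex and 0.39 for pericycle, beside 0.03, -0.01 and -0.04 over all genes tested. The list and the comparisons between numbers were chosen with earlier results of these data known, so the counts and medians are descriptions.

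**Figure D5:**
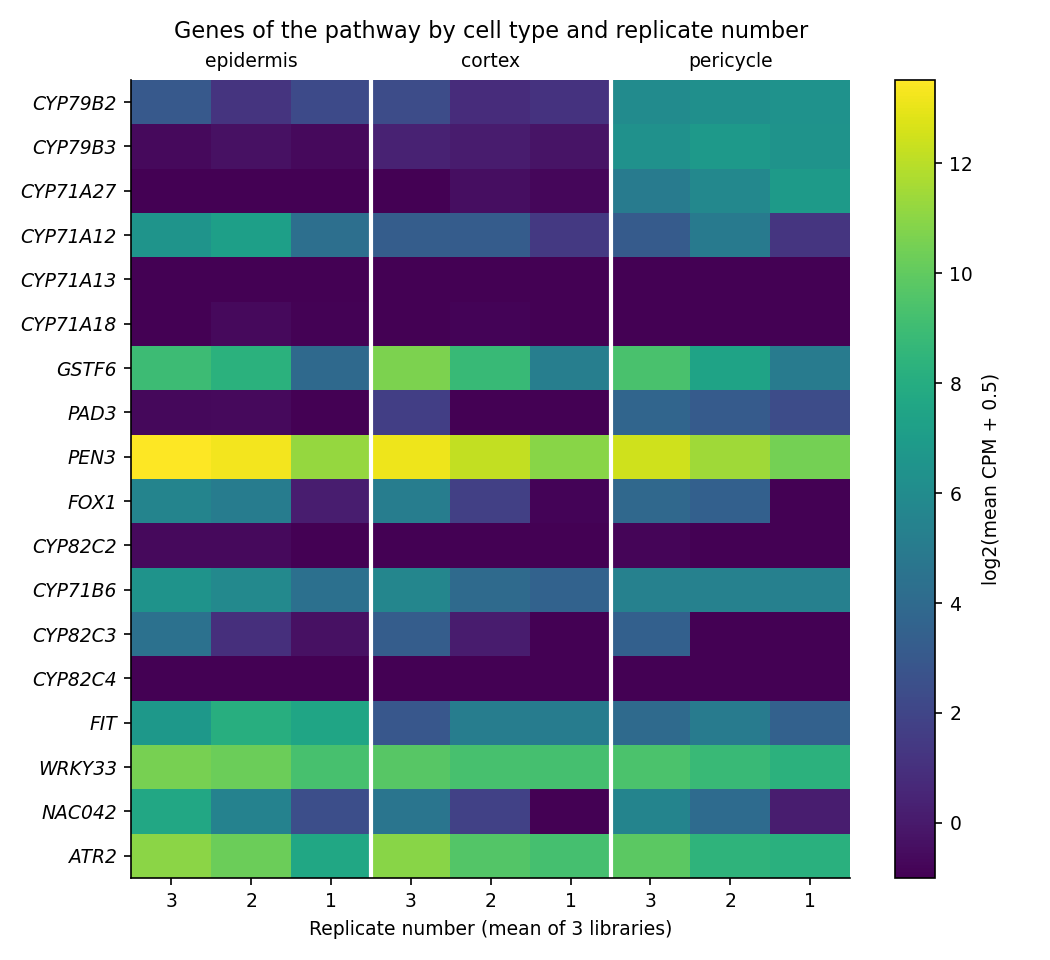
Levels of the P450 genes and of chosen pathway genes by cell type and replicate number, with 1 row for each gene. Colour gives log2 of the mean CPM of 3 libraries plus 0.5. GSTF6, NAC042, PEN3 and ATR2 were called between numbers 3 and 1 in all 3 cell types, and CYP79B2, CYP79B3 and CYP71A27 were lower in the epidermis and cortex than in the pericycle.

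GSTF6, NAC042, PEN3 and ATR2 were higher in number 3 than in number 1 in every cell type. GSTF6 encodes a glutathione transferase linked to the conjugation of indole-3-acetonitrile, and its log2 fold changes were 4.998 for epidermis, 5.32 for cortex and 4.65 for pericycle (edgeR adjusted p = 0.000562, 1.71e-05 and 0.00207). NAC042, also known as JUB1, encodes a transcription factor required for full camalexin accumulation and had 5.77 in the epidermis and 7.61 in the pericycle (edgeR adjusted p = 0.00601 and 0.0428). In the cortex its libraries numbered 1 were at 0, and number 3, with 605 counts, was at least 107-fold higher (3 counts over that group). PEN3, a transporter that exports camalexin, had 2.38, 2.18 and 2.00 (edgeR adjusted p = 0.0250, 0.000287 and 0.00414), and ATR2, a reductase that supplies electrons to P450 enzymes, had 3.35, 1.72 and 1.66 (edgeR adjusted p = 0.00400, 0.00242 and 0.0160). None of these 4 passed the test between labels in edgeR.

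Called between numbers 3 and 1 in the epidermis and the cortex were FOX1, CYP82C3, GSH1, GSTU4, MPK3 and MYB51. FOX1, which oxidises the cyanohydrin on the way to hydroxy-ICN, averaged 46.7 ± 10.4 CPM in number 3 and 0.605 ± 1.05 CPM in number 1 in the epidermis, a log2 fold change of 6.12 ± 0.85 (SE, edgeR adjusted p = 0.00680). In the cortex it averaged 35.8 ± 18.6 CPM and 0.0463 ± 0.0802 CPM (8.77 ± 0.73, SE, edgeR adjusted p = 5.69e-05). In the pericycle its libraries numbered 1 were all at 0, so that number 3 was at least 90.1-fold and number 2 at least 74.2-fold higher (3 counts over that group), and 3 against 1 did not pass the test (edgeR adjusted p = 0.0533). CYP82C3, the copy between CYP82C4 and CYP82C2, whose role is not known here, averaged 20.6 ± 12.2 CPM in number 3 and 0.273 ± 0.315 CPM in number 1 in the epidermis (6.52 ± 0.85, SE, edgeR adjusted p = 0.00513). It was at least 35.8-fold higher in the cortex in number 3 than in number 1, where it was at 0 (edgeR adjusted p = 0.00476). In the pericycle it had 188 counts in number 3 and 0 in the 6 other libraries, and the test was not passed (edgeR adjusted p = 0.311).

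The other 4 of these genes, called in the same cell types, had values of 1.05 to 4.08. GSTU4, a glutathione transferase, had a log2 fold change of 4.08 in the epidermis and 3.34 in the cortex between numbers 3 and 1 (edgeR adjusted p = 0.0238 and 0.00446). MYB51, a regulator of indole glucosinolate synthesis, showed 2.28 and 3.67 (edgeR adjusted p = 0.0125 and 0.000341), MPK3, a kinase that activates WRKY33, had 2.01 and 1.05 (edgeR adjusted p = 0.00803 and 0.0119), and GSH1, which makes the glutathione precursor, had 1.82 and 1.56 (edgeR adjusted p = 0.00781 and 0.00178). WRKY33, the transcription factor that activates PAD3 and CYP71A13 in leaves, was abundant at 228 to 1701 CPM in all libraries. Its log2 fold changes between numbers 3 and 1 were 1.30, 0.44 and 1.17 in the epidermis, cortex and pericycle (edgeR adjusted p = 0.0993, 0.237 and 0.154) and did not pass the test. FIT, the iron deficiency regulator upstream of CYP82C4, was present in the epidermis at 80.5 to 360 CPM although CYP82C4 was at 0. It was lower in number 3 than in number 1 in the cortex, with a log2 fold change of -2.31 ± 0.30 (SE, edgeR adjusted p = 0.000722).

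Between cell types over all 27 libraries, the genes that supply acetaldoxime were, like PAD3, highest in the pericycle libraries, which also held phloem markers. CYP79B3 had 0 to 0.819 CPM in epidermis libraries, 0 to 1.71 CPM in cortex libraries and 28.0 to 209 CPM in pericycle libraries, with a log2 difference of -8.73 ± 0.71 for epidermis minus pericycle (SE, edgeR adjusted p = 5.69e-09) and -7.57 ± 0.66 for cortex minus pericycle (SE, edgeR adjusted p = 4.71e-08). CYP79B2 had -4.40 ± 0.56 (SE, edgeR adjusted p = 2.59e-06) and -5.08 ± 0.58 (SE, edgeR adjusted p = 1.55e-06) in these comparisons. CYP71A27, a relative of CYP71A12, was at 0 in the 9 epidermis libraries and had 3416 counts in the pericycle, at least 1404-fold higher (3 counts over the epidermis), and 5 counts in the cortex. CYP71A18, another relative of CYP71A12, had 4 counts in the whole series. FOX1 was higher in the epidermis than in the cortex by 2.44 ± 0.58 (SE, edgeR adjusted p = 0.00270) and than in the pericycle by 3.10 ± 0.66 (SE, edgeR adjusted p = 0.000810), the same direction as CYP71A12. Of 30 list genes tested, 9 were higher and 11 lower in the epidermis than in the cortex, 14 higher and 6 lower than in the pericycle, and 13 were higher and 6 lower in the cortex than in the pericycle. The shares over all genes in these comparisons were 39.3%, 47.7% and 45.4%.

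The bases before the start of the genes were searched for the W-box, the motif TTGACC or TTGACT that WRKY factors bind, and for the G-box CACGTG, on both strands over 250 bases. CYP82C2 held 3 W-boxes, at 250, 143 and 96 bases before the start, and CYP71B6 held 1, at 33 bases. The windows of the other 4 genes held none, and none of the 6 held a G-box. CYP71A12 and CYP71A13 have no annotated exon bases outside the coding sequence, so their windows end at the start codon and can hold untranslated bases. Of 27443 windows of the same length before nuclear genes, 28.4% held at least 1 W-box, 1.06% held 3 or more and 6.49% held a G-box. The windows of the pair with W-boxes are shown from RefSeq in TAIR10.1 (chr2:10281468-10281717 for CYP71B6 and chr4:15462100-15462349 for CYP82C2, plus strand), with W-boxes in capitals.
CYP71B6: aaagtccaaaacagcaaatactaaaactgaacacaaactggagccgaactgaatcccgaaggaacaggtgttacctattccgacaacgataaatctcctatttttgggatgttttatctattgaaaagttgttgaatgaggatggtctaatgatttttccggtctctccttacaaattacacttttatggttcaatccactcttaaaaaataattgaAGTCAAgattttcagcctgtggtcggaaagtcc
CYP82C2: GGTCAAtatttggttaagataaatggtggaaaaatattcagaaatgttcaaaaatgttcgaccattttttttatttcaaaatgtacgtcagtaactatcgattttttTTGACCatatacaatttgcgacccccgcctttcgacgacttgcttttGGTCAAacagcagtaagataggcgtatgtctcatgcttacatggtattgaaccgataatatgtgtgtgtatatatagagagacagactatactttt
CYP82C2, with the most W-boxes of the 6, had 6 counts in the series, and whether W-boxes go with level was not tested. The study searched longer promoters with motif matrices, so a window without a match here does not show that WRKY sites are absent.

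Across the 27 libraries, with each gene centred within its cell type, the log2 CPM of CYP71A12 and CYP71B6 correlated with a Pearson r of 0.62, CYP71A12 and PAD3 with 0.36, and PAD3 and CYP71B6 with 0.33. The libraries share replicate numbers, sequencing pools and depth, so these are descriptions. Of 19137 genes, those most like CYP71A12 were AT5G44990, a gene of the glutathione transferase family (0.80), AT1G67270 (0.80) and FOX1 (0.77). For CYP71B6 they were AKN2, an adenosine phosphosulfate kinase (0.86), APS3, an ATP sulfurylase (0.85), and AT2G31945 (0.83). For PAD3 they were AT3G15356, of the legume lectin family (0.78), AT4G39230 (0.77) and AT3G03970 (0.76).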

How the data were processed

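The authors deposited unscaled whole-number counts of read pairs per gene, 1 file for each of the 27 libraries. By the study's methods, read pairs were mapped to TAIR10 with STAR and counted over exons without strand with LiBiNorm on Araport 11, while TopHat2 2.0.14 and HTSeq are the tools in the labels. In each file, 5 entries name no gene and were left out. Reads aligned to several places made up 31.1 to 66.2% of a library, reads on no gene 5.24 to 9.31% and ambiguous ones 2.82 to 5.55%, and the remaining 2 entries were 0. Reads aligned to several places were 31.1 to 43.9% in epidermis libraries, except Pep1 replicate 2 at 58.7%. They were 53.7 to 65.4% in cortex libraries and 58.7 to 66.2% in pericycle libraries. The part of this in differences between cell types was not tested.

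As in the study, organelle genes (152 mitochondrial and 133 plastid) were left out, and so were 4 rRNA genes, 1 gene that overlaps them and 362 ribosomal protein genes. The main test was the quasi-likelihood F test of edgeR 4.0.16 (with limma 3.58.1 under R 4.3.3) after TMM normalization and filterByExpr (minimum count 10, minimum total count 15). Each cell type was fitted on its 9 libraries with treatment label and replicate number, the mock libraries with cell type and number, and all 27 libraries with label and number within cell type. Adjustment was by Benjamini and Hochberg over all genes tested (16020 in the epidermis, 16375 in the cortex, 17698 in the pericycle, 17752 in mock and 19138 over all libraries), and a difference was called at an adjusted p under 0.05. The scripts were tested on simulated data.

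CPM used TMM-scaled library sizes, RPKM the exon length in TAIR10.1, correlations log2 CPM with a prior count of 2. A count of 0 was bounded by 3 counts, and exact counting intervals are at 95%. Intervals and bounds cover counting error only. Motifs and repeated stretches were searched with Python 3.11.15, numpy 2.4.6 and pandas 2.3.3, and figures drawn with matplotlib 3.10.9.

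Whether same-numbered libraries deviate together was checked over 27 pairs within cell types. Their correlations were -0.175 to 0.589 (median 0.193), and 18 were over 0.1, so same-numbered libraries deviated together in part. They were -0.175 to 0.589 in the epidermis, 0.0257 to 0.415 in the cortex and -0.0478 to 0.171 in the pericycle. Whether same-numbered libraries come from 1 experiment was not tested. The number was kept in the main fit because the study's model held a batch term. In the mock fit the number is a block across cell types, and pairs within cell types do not bear on that block.

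The alternatives were DESeq2 1.42.0, RLE size factors, no TMM, no filter, ribosomal genes kept, no replicate block, the sequencing pool as a further term, all 27 libraries in 1 fit and each library left out in turn. The 6 P450 genes, the pathway list and the comparisons between numbers were chosen with earlier results of these data known. The genes named are the 6 P450 genes, the pathway genes called between numbers 3 and 1 in at least 2 cell types, 8 pathway genes fixed by name (WRKY33, FOX1, CYP79B2, CYP79B3, CYP71A18, CYP71A27, CYP82C3 and FIT), and for each P450 gene the 3 most alike over the libraries.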

Additional observations from a re-analysis of the deposited data

How the results depend on the processing

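Counts of P450 genes called between treatment labels stayed at 0 under every alternative run, and so did the interaction tests. Between epidermis numbers 3 and 1, DESeq2 called 2 genes (1 in edgeR). Between epidermis numbers 2 and 1, edgeR called 1, against 2 in DESeq2 and 0 with RLE factors, without TMM or in the fit of all 27 libraries. Between cortex numbers 3 and 1, the 2 calls became 1 with the sequencing pool as a further term or in the fit of all 27 libraries, and 3 without the filter or in DESeq2, which added PAD3. Between cortex numbers 2 and 1, the count of 0 became 1 without the count filter or in DESeq2. Between cortex numbers 3 and 2, the count of 1 became 0 without TMM, with ribosomal genes kept, with the pool term or in the fit of all 27 libraries, and 2 without the filter or in DESeq2, which added PAD3. In mock libraries, epidermis minus pericycle had 1 call, 2 without the filter and 0 without the replicate block, and cortex minus pericycle had 0 calls and 1 without TMM, without the filter or in DESeq2. Over all libraries, cortex minus pericycle had 2 calls and 1 without the replicate block, and epidermis minus cortex had 2 calls and 3 without it, which added PAD3. The block changed no other call of a P450 gene. The cause of these changes was not tested.

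With each library left out in turn, the calls ran from 0 to 2 between epidermis numbers 3 and 1 and between 2 and 1, from 1 to 2 between cortex numbers 3 and 1, from 0 to 1 between cortex numbers 3 and 2, from 0 to 1 for mock epidermis minus cortex, from 1 to 2 for mock epidermis minus pericycle and from 0 to 1 for mock cortex minus pericycle. No difference of a P450 gene on its called side changed direction. Limits remain. CYP71A13 and CYP82C4 had no counts, CYP82C2 and, within the epidermis and within the cortex, PAD3 could be tested only without the count filter or in DESeq2, labels and sequencing pools follow each other in that 6 of 9 groups lie in 1 pool each, and CYP71A12 varied widely among libraries of 1 label.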
